A study of Mus musculus with 12 samples.

Results

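The comparison describes how the transcriptome of liver sinusoidal endothelial cells (LSECs) differed when both stabilins were missing. It sets the 3 arrays of double-deficient cells (DKO, lacking Stab1 and Stab2) against the 3 wild-type arrays (WT), which are 6 of the 12 arrays of the series, across 24011 genes. The arrays were chosen by their titles. The other 6 arrays hold cells lacking Stab1 alone (Stab1KO, 3 arrays) or Stab2 alone (Stab2KO, 3 arrays). They helped to estimate the spread of each gene and are shown beside the genes described. Every mouse was labelled C57BL/6J and was 3 to 4 months old. Livers were perfused, cells were captured with magnetic beads against CD146, and RNA was taken directly after isolation. Each array holds a pool of 3 mice, so variation between single mice was averaged within a pool. The labels do not describe the alleles, and they do not say whether the genotypes were littermates or shared a colony, so colony and genotype cannot be told apart.

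LSECs line the liver's capillaries. They are perforated by fenestrae, lack a continuous basement membrane and take up waste macromolecules from the blood at a high rate. Stabilin-1 and stabilin-2 are their class H scavenger receptors, large membrane proteins that bind and internalise hyaluronan (stabilin-2 foremost), modified lipoproteins, advanced glycation end products, phosphatidylserine and several matrix proteins. The sinusoid also holds stellate cells, the pericytes that store vitamin A and make matrix, and Kupffer cells, the resident macrophages, while bile duct epithelium and larger vessels lie nearby in the portal tract.

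The label of the cells was borne out by their markers. Lyve1 measured 13.001, 12.86 and 13.09 log2 in DKO replicates 1 to 3 and 12.76, 12.63 and 12.80 in WT replicates 1 to 3, and it encodes a hyaluronan receptor of LSECs and lymphatic vessels. The mean of 33 LSEC identity genes was 11.51, 11.54 and 11.22 in DKO and 11.59, 11.59 and 11.59 in WT, so the list was high in all 6 arrays and lowest in DKO replicate 3. With all arrays 25 of the 33 had a negative difference and 8 a positive one, Lyve1 among the latter. Mcam, which encodes the CD146 antigen used for capture, differed by 0.05 ± 0.08 log2 (DKO minus WT ± SE, 3 arrays each, adjusted p = 0.85). DKO replicate 3 stood apart. Its correlation with the other arrays across genes was 0.956 to 0.968, against 0.987 to 0.996 among the other 11. It lay more than 1 log2 above the mean of the other DKO arrays in 781 genes and more than 1 below that mean in 250. The mean of 20 neutrophil genes was 5.88, 6.26 and 10.91 in DKO replicates 1 to 3 and 5.10, 5.22 and 5.46 in WT, so the neutrophil signal was far above the rest in DKO replicate 3 and was also above every WT array in the other DKO arrays. Each result is therefore given with all 12 arrays and without that array, and the part of neutrophil RNA in the results was not tested beyond these values and the covariate named below.

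Differences are in log2 units, DKO minus WT, and adjusted p-values come from limma with Benjamini-Hochberg adjustment over the 24011 genes. Calls were made where the adjusted p lay under 0.05. With all 12 arrays 181 genes were higher in DKO (0.754% of those tested) and 251 were lower (1.05%). Without DKO replicate 3, 249 were higher (1.04%) and 175 lower (0.729%). The calls of both fits shared 267 genes, 112 higher (0.466%) and 155 lower (0.646%), and in all 267 the 3 DKO arrays did not overlap the 3 WT arrays. Over all genes 24% had arrays that did not overlap. The calls were made from these same arrays, so the lack of overlap among the called genes is not separate support for them. The median difference over all genes was -0.02 with and -0.01 without DKO replicate 3. At an unadjusted p under 0.05 in limma, 1432 of the 24011 genes were higher and 2567 lower with all arrays. Without DKO replicate 3, 3348 passed it. Counts of list members at an unadjusted p, given below, stand beside these. When each of the 12 arrays was left out in turn, 106 genes kept their call every time, 28 of them higher (0.117%) and 78 lower (0.325%). The count of calls depended on single arrays and fell to 125 without WT replicate 2, to 133 without WT replicate 3, to 233 without WT replicate 1, to 261 without DKO replicate 1 and to 276 without Stab2KO replicate 2. With DKO replicate 3 already left out, it fell from 424 to 73 without DKO replicate 2, to 143 without DKO replicate 1, to 177 without WT replicate 2 and to 210 without WT replicate 3, and the count in both fits fell to 52, 76, 102 and 116. With the mean of the neutrophil genes as a covariate, 247 genes were called with all arrays and 66 without DKO replicate 3. In the sections that follow, a gene is said to have risen or fallen where it was called in both fits, and is called stable where it also kept its call with each array left out. Stability in this sense does not cover other fits. Of the 106 stable genes, 5 lost their call with the neutrophil covariate, namely Cited2, Fdft1, Fgf1, Foxf1 and Muc1, and 41 lost it with only the 6 DKO and WT arrays.

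**Figure D1:**
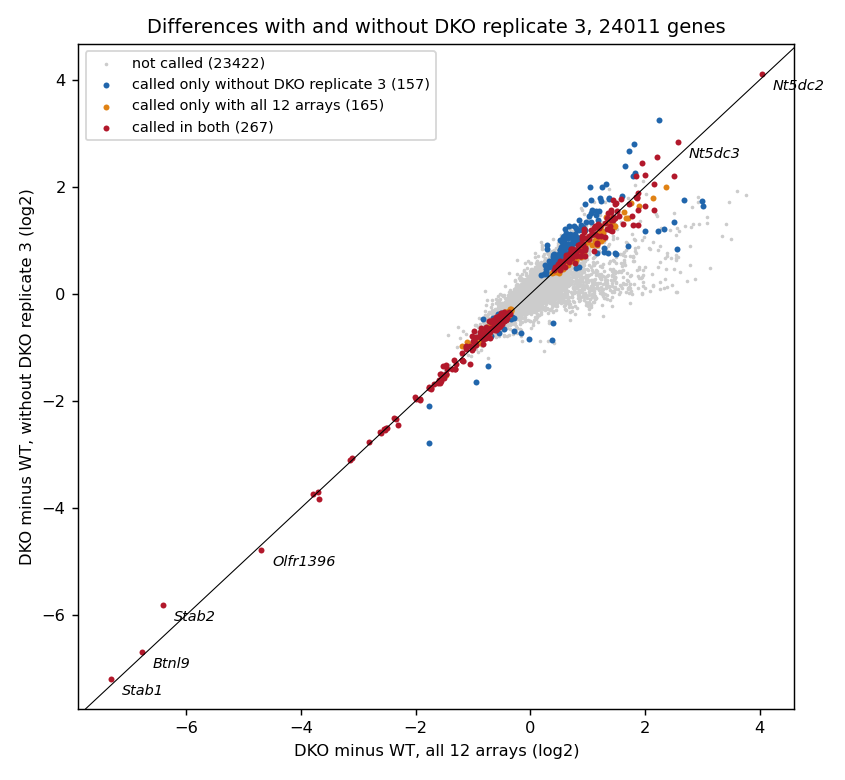
Each point is 1 of 24011 genes, with its DKO minus WT difference (log2) from all 12 arrays on the horizontal axis and from the 11 arrays without DKO replicate 3 on the vertical axis; the line marks equal values. The 267 genes called in both lie along the line, while many uncalled genes lie to the right of it, where including DKO replicate 3 raises the difference.

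The targeted genes followed the labels. Stab1 measured 5.44, 5.27 and 4.98 log2 in DKO replicates 1 to 3 and 12.55, 12.46 and 12.62 in WT replicates 1 to 3, a difference of -7.31 ± 0.12 (adjusted p = 1.2e-10). Stab2 measured 6.89, 7.60 and 5.46 log2 in DKO replicates 1 to 3 and 12.99, 13.07 and 13.09 in WT replicates 1 to 3, a difference of -6.40 ± 0.44 (adjusted p = 6.7e-05), or -5.81 without DKO replicate 3. DKO replicate 3 was the lowest of the 3 DKO arrays for both genes. A gene beside each locus was higher in DKO. Nt5dc2, next to Stab1 on chromosome 14, rose by 4.04 ± 0.14 and Nt5dc3, next to Stab2 on chromosome 10, rose by 2.57 ± 0.19 (adjusted p = 1.1e-07 and 0.00011). In the single knockouts Nt5dc2 differed from WT by 4.55 in Stab1KO and 0.31 in Stab2KO, and Nt5dc3 differed by 2.72 in Stab2KO. Tdg-ps2, a pseudogene also on chromosome 10 whose probes may share signal with its parent gene, rose by 1.89 ± 0.32, lost its call without WT replicates 1, 2 or 3 (adjusted p up to 0.071), and differed by 2.03 in Stab2KO and -0.22 in Stab1KO. Nisch, on the other side of Stab1, differed by 0.24 ± 0.10 and was called only without DKO replicate 3 (0.38, adjusted p = 0.029). Both Nt5dc2 and Nt5dc3 encode members of a family of 5'-nucleotidase domain proteins.

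Genes of hepatic stellate cells were lower in DKO. Of 24 measured genes on the stellate list, 15 fell and 0 rose, and 14 of the falls were stable, beside 0.646% of all genes that fell. The median difference of the list was -1.56 with and -1.57 without DKO replicate 3. The mean of the list was 6.28, 6.08 and 6.28 in DKO and 7.68, 8.24 and 7.82 in WT, with every DKO array more than 1 log2 below every WT array. In a bulk sample such as this, fewer cells of a type and less RNA per cell cannot be told apart.

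Lrat is a defining stellate gene whose product turns retinol into the esters that are stored. Lrat measured 6.03, 5.20 and 6.05 log2 in DKO replicates 1 to 3 and 9.13, 9.77 and 9.42 in WT replicates 1 to 3, a difference of -3.68 ± 0.26 (adjusted p = 6.8e-05). Colec11 measured 5.81, 5.54 and 5.56 log2 in DKO replicates 1 to 3 and 8.57, 9.13 and 8.62 in WT replicates 1 to 3, a difference of -3.14 ± 0.17 (adjusted p = 7.6e-06). Colec11 encodes a collectin, a soluble lectin that starts the lectin pathway of complement, and all 3 DKO arrays lay below all 3 WT arrays for both genes. The related collectin gene Colec10 fell (-3.79 ± 0.33). Reln, which encodes the secreted glycoprotein reelin and is expressed in stellate cells and lymphatic endothelium, differed by -2.81 ± 0.32. The matrix proteoglycan genes Lum and Dcn fell (-2.55 ± 0.13 and -2.35 ± 0.20). Hhip, which encodes an inhibitor of hedgehog ligands, differed by -2.53 ± 0.21, and Vipr1, which encodes a receptor of vasoactive intestinal peptide, by -2.38 ± 0.18. The transcription factor gene Tcf21 differed by -1.56 ± 0.22 and Pdgfra, a receptor of platelet-derived growth factor, by -1.77 ± 0.23. All of these were stable.

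Several members that did not pass both fits had negative differences. Steap4 was called only without DKO replicate 3 (-2.79, adjusted p = 0.0018), and Pdgfrb and Col1a2 only with it (-1.07 and -0.74, adjusted p = 0.034 and 0.044). Pdgfrb encodes the other receptor of platelet-derived growth factor and Col1a2 a chain of type I collagen. Col1a1, Des and Hgf measured differences of -0.34, -0.37 and -0.66 and were not called. Acta2, which encodes the smooth muscle actin of activated stellate and smooth muscle cells, measured 2.02 (adjusted p = 0.1), opposite in sign to the stellate list and not called. None of 20 genes of smooth muscle and portal fibroblasts was lower in either fit, and 1, Cd34, rose. It is also an endothelial gene.

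Stable falls outside the stellate list included further genes of mesenchymal matrix and signalling. Postn, which encodes the matricellular protein periostin, differed by -2.30 ± 0.28, Ddr2, a collagen receptor, by -1.57 ± 0.17, Cdh2, which encodes N-cadherin, by -1.59 ± 0.20, and Pth1r, the parathyroid hormone receptor, by -2.01 ± 0.15. Tlcd4, which encodes a membrane protein with a TLC domain, differed by -3.11 ± 0.26. The angiotensin receptor gene Agtr1a differed by -1.57 ± 0.17 and Sod3, which encodes extracellular superoxide dismutase, by -1.500 ± 0.20. Cxcl12 measured 7.14, 6.89 and 6.93 log2 in DKO replicates 1 to 3 and 9.32, 9.77 and 9.45 in WT replicates 1 to 3, a difference of -2.52 ± 0.19 (adjusted p = 0.00012), and the 2 groups did not overlap. Cxcl12 encodes the chemokine that binds the receptor CXCR4. Of 24 chemokine genes it and Cxcl14 (-0.70 ± 0.13) fell and 0 rose. The call of Cxcl14 was lost without DKO replicate 1 or WT replicates 2 or 3 (adjusted p up to 0.1).

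Bone morphogenetic protein (BMP) ligands were among these falls. BMPs signal through serine and threonine kinase receptors to Smad proteins, and in the sinusoid BMP9 and BMP10 act on the endothelial receptor ALK1. Of 19 measured ligand genes 4 fell, all of them stable, and 0 rose in both fits. Over all genes 0.646% fell, 0.325% were stable falls and 0.466% rose. Bmp5 measured 4.81, 4.57 and 4.70 log2 in DKO replicates 1 to 3 and 8.07, 8.90 and 8.21 in WT replicates 1 to 3, a difference of -3.70 ± 0.23 (adjusted p = 3.5e-05). Gdf2, which encodes BMP9, differed by -2.50 ± 0.23, Bmp10 by -2.63 ± 0.20 and Gdf10 by -1.99 ± 0.25. Gdf2 and Gdf10 lie 2.80 and 2.78 Mb from Stab1 on chromosome 14, where colony and genotype cannot be told apart. They differed from WT by -2.20 and -2.11 in Stab1KO and by -1.58 and -1.31 in Stab2KO, which share the WT arrays. Bmp4 was higher without DKO replicate 3 only (1.82, adjusted p = 0.044). Of 22 genes of BMP receptors, Smads and their targets, 0 were called by limma in either fit (4 were higher and 1 lower at an unadjusted p under 0.05 with all arrays), and the median of that list was 0.19. Acvrl1, which encodes ALK1, measured 0.59 ± 0.31 (adjusted p = 0.36).

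Genes of this group were low in the single knockouts as well. Those share the WT arrays with the DKO comparison, so the values are given side by side only. Lrat differed from WT by -3.01 in Stab1KO and -2.05 in Stab2KO, Colec11 by -2.60 and -1.93, Bmp5 by -3.32 and -2.52, and Cxcl12 by -2.42 and -1.70. Tested directly, DKO was lower than Stab2KO for Lrat (adjusted p = 0.015), Colec11 (0.01), Bmp5 (0.029) and Cxcl12 (0.046), while the difference from Stab1KO was not called for any of these 4 (adjusted p = 0.23, 0.14, 0.46 and 0.86). None of the 4 calls against Stab2KO held with every array left out. Without Stab2KO replicate 2 they were lost for all 4, and the largest adjusted p with 1 array left out was 0.071, 0.052, 0.11 and 0.15. For Cxcl12 the call was lost in 10 of the 12 fits that left out 1 array. Over all genes 0.945% were called between DKO and Stab1KO and 3.42% between DKO and Stab2KO. The first count went from 227 to 22 without Stab1KO replicate 2, to 28 without Stab1KO replicate 3, to 112 without WT replicate 3, to 115 without DKO replicate 1, to 123 without Stab2KO replicate 1 or 2, and to 357 without DKO replicate 3. The second went from 822 to 45 without Stab2KO replicate 2, to 81 without Stab2KO replicate 1, to 366 without DKO replicate 1, and to 513, 433 and 423 without WT replicates 1, 2 and 3. Ass1, which encodes argininosuccinate synthase of the urea and citrulline cycles, differed by -2.60 ± 0.33 in DKO, -2.54 in Stab2KO and 0.19 in Stab1KO, and DKO differed from Stab1KO (adjusted p = 0.0074) with no call against Stab2KO (0.94).

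**Figure D2:**
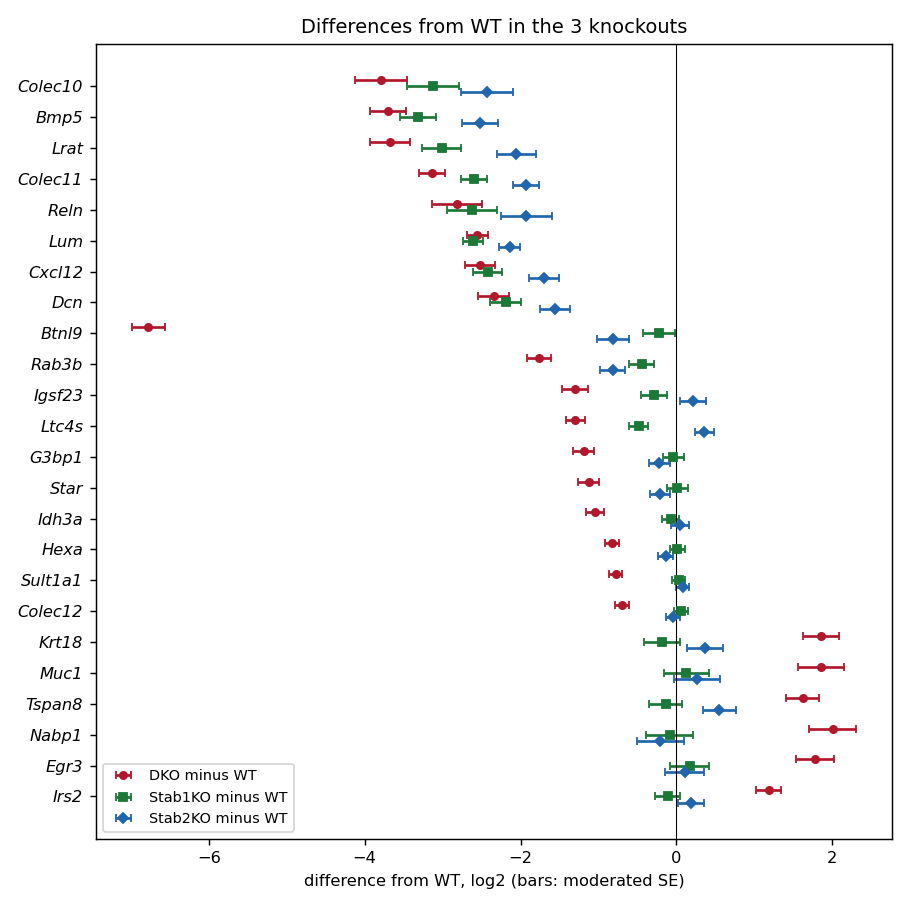
Differences from WT (log2, with moderated SE bars) of 24 stable genes in DKO, Stab1KO and Stab2KO, which share the same 3 WT arrays. The upper 8 genes are low in all 3 knockouts, and the genes below them lie away from 0 mainly in DKO.

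A second group of stable changes was seen in DKO beyond either single knockout. Of the 106 stable genes, 41 were also called between DKO and Stab1KO and between DKO and Stab2KO, 18 of them higher and 23 lower in DKO. These calls against the single knockouts depended on the arrays of those groups. Both were kept by 14 of the 41 genes without Stab1KO replicate 2, by 17 without Stab1KO replicate 3, by 20 without Stab2KO replicate 1 and by 14 without Stab2KO replicate 2, and by 29 to 39 without any other single array. The 8 genes that kept both with each array left out were Btnl9, Olfr1396, G3bp1, Idh3a, Sult1a1, Celf4, Elf3 and Lsmem1. The genes of this group that the naming rule did not reach were picked after their values were seen. Idh3a measured 7.54, 7.49 and 7.33 log2 in DKO replicates 1 to 3 and 8.42, 8.60 and 8.46 in WT replicates 1 to 3. Stab1KO and Stab2KO lay at 8.20, 8.56 and 8.51 and at 8.55, 8.67 and 8.39, and all 3 DKO arrays lay below the other 9. The difference from WT was -1.04 ± 0.11 (adjusted p = 0.0015), and DKO also differed from Stab1KO and Stab2KO (adjusted p = 0.0074 and 0.0025). Idh3a encodes the catalytic subunit of the mitochondrial NAD-dependent isocitrate dehydrogenase. Oxidative phosphorylation genes as a list had 0 calls up and 0 down of 24 (0 up and 3 down at an unadjusted p under 0.05), with a median of -0.13.

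Hexa measured 10.32, 10.18 and 10.04 log2 in DKO replicates 1 to 3 and 11.15, 10.97 and 10.89 in WT replicates 1 to 3, a difference of -0.83 ± 0.09 (adjusted p = 0.002). Hexa encodes the alpha subunit of the lysosomal beta-hexosaminidase, and the DKO arrays did not overlap any of the other 9. Colec12 measured 7.55, 7.61 and 7.39 log2 in DKO replicates 1 to 3 and 8.13, 8.25 and 8.27 in WT replicates 1 to 3, a difference of -0.70 ± 0.09 (adjusted p = 0.0043), and again all 3 DKO arrays were below the rest. Both were among the 41. For Hexa and Colec12 the adjusted p of the contrast against Stab2KO reached 0.052 without Stab2KO replicate 2. Colec12 encodes a membrane collectin that acts as a scavenger receptor. Mgat1, whose product starts the building of hybrid and complex N-glycans, differed by -0.94 ± 0.14 and was also among the 41. Of 30 scavenger and endocytic receptor genes Colec12 alone fell, and of 38 lysosomal genes Hexa alone fell in both fits. The medians of these lists were -0.11 and -0.17. Arrays lay wholly below WT in 17 of the 38 lysosomal genes and wholly above in 3, where 24% of all genes did not overlap in 1 direction or the other. Of 34 genes of the endocytosis machinery, 32 had a negative difference with all arrays and 32 without DKO replicate 3, with medians of -0.20 and -0.13. Arrays lay wholly below WT in 18 of the 34 and wholly above in 1, beside the same 24%. In this list the clathrin adaptor gene Ap2s1 fell (-0.53 ± 0.09) and Ehd2, which encodes a membrane-shaping ATPase at caveolae, rose by 1.02 ± 0.18. Neither was stable: the call of Ap2s1 was lost without DKO replicate 1 or WT replicates 1, 2 or 3 (adjusted p up to 0.088), and that of Ehd2 without DKO replicate 1 or WT replicates 2 or 3 (up to 0.085).

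Other falls among the 41 were spread over function. Star, which encodes the protein that carries cholesterol into mitochondria for steroid synthesis, differed by -1.13 ± 0.13. Ltc4s, leukotriene C4 synthase, differed by -1.30 ± 0.12, Sult1a1, a sulfotransferase of phenols, by -0.78 ± 0.08, and Ces2e, a carboxylesterase, by -1.12 ± 0.15. Rab3b, which encodes a small GTPase of regulated secretion, measured 6.66, 7.03 and 6.76 in DKO against 8.38, 8.92 and 8.43 in WT, a difference of -1.76 ± 0.16. Its values in Stab1KO and Stab2KO differed from WT by -0.45 and -0.82. Emilin1, an elastic fibre protein, differed by -0.75 ± 0.09, the pseudokinase gene Trib2 by -0.76 ± 0.08, the DNA repair gene Mgmt by -0.67 ± 0.09, and Otulin, which encodes a deubiquitinase that removes linear ubiquitin chains, by -0.63 ± 0.08. Fam167b, an LSEC identity gene, differed by -0.63 ± 0.09. Celf4, which encodes an RNA-binding protein of splicing, measured 5.81, 5.74 and 5.58 in DKO against 6.70, 6.60 and 6.44 in WT, a difference of -0.87 ± 0.10, and like Sult1a1 it kept its calls against both single knockouts with each array left out.

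Btnl9 was the gene most reduced apart from the targets. It encodes a butyrophilin-like protein of the immunoglobulin superfamily and lies on chromosome 11, away from both stabilin loci. Btnl9 measured 4.64, 5.33 and 4.72 log2 in DKO replicates 1 to 3 and 11.80, 11.70 and 11.52 in WT replicates 1 to 3, a difference of -6.78 ± 0.21 (adjusted p = 6.4e-08), or -6.69 without DKO replicate 3. Stab1KO and Stab2KO measured 11.68, 11.25 and 11.43 and 10.88, 11.19 and 10.51, so that all 3 DKO arrays were far below the other 9 (adjusted p = 1.8e-07 and 2.5e-07 for DKO against each). It was the one butyrophilin of 14 measured that was called. Within 1 Mb of Btnl9, 4 of 38 other genes (10.5%) were called in both fits, 1 higher and 3 lower. Olfr1396, an olfactory receptor gene, differed by -4.69 ± 0.32, and Mgat1 by the value given above. Tbc1d9b, which encodes a protein with a TBC domain, fell (-0.51 ± 0.11) and lost its call when any array other than DKO replicates 2 or 3 was left out (adjusted p up to 0.16). Gfpt2, which encodes an enzyme of hexosamine synthesis, rose by 1.12 ± 0.24 and lost its call without DKO replicates 1 or 2, WT replicates 2 or 3, Stab1KO replicates 1 or 3 or Stab2KO replicates 1 or 2 (adjusted p up to 0.15). Within 5 Mb 7 of 140 (5%) were called, the others being Ltc4s, given above, the olfactory receptor gene Olfr1371 (0.74 ± 0.12) and the pseudogene Olfr1372-ps1 (2.21 ± 0.37). The calls of the latter pair were lost without WT replicates 2 or 3 (adjusted p up to 0.079) and without DKO replicate 1 or WT replicates 2 or 3 (up to 0.085). G3bp1, which encodes a stress granule protein and lies 6.30 Mb from Btnl9, differed by -1.19 ± 0.13. Within 1 Mb of Stab1 1 of 37 other genes (2.7%) and of Stab2 2 of 16 (12.5%) were called in both fits, all of them higher. Within 5 Mb of Stab1 4 of 106 genes (3.77%) and of Stab2 3 of 82 (3.66%) were called. Over all genes the share was 1.11%.

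**Figure D3:**
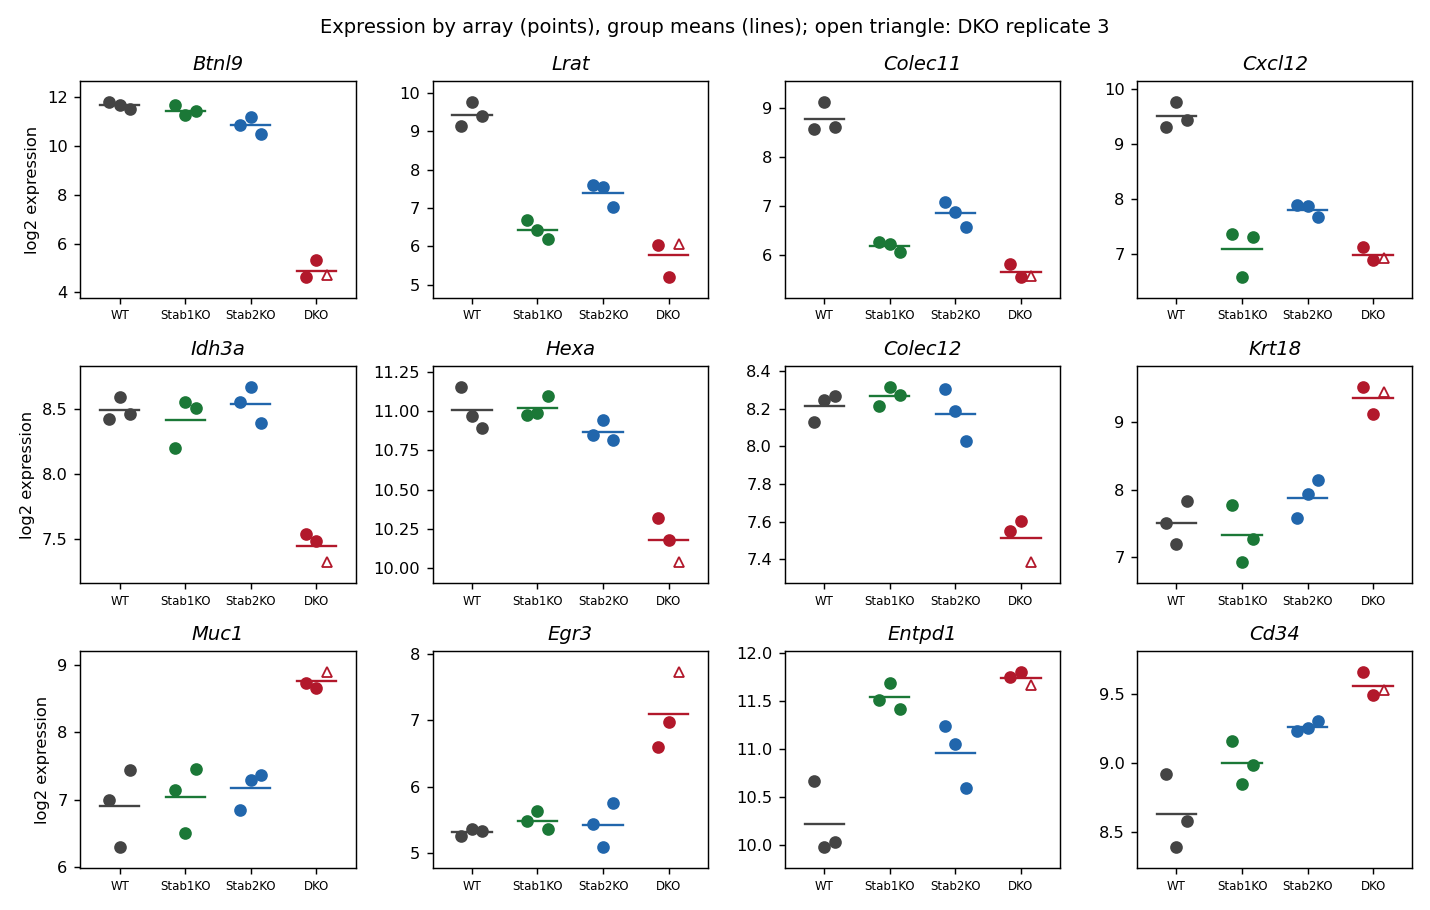
Log2 expression of 12 stable genes in every array of the 4 genotypes; points are pools of 3 mice, lines are group means, and the open triangle is DKO replicate 3. For each gene the 3 DKO arrays do not overlap the 3 WT arrays.

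The rises included genes of simple epithelium. Of 9 measured cholangiocyte genes, the markers of bile duct epithelium, 6 were higher with all arrays, 2 without DKO replicate 3, and 0 were lower. Of all genes 0.754% and 1.04% were higher in these fits. The median difference of the list was 1.27 and 1.14. Muc1 measured 8.74, 8.67 and 8.89 log2 in DKO replicates 1 to 3 and 6.99, 6.30 and 7.44 in WT replicates 1 to 3, a difference of 1.86 ± 0.29 (adjusted p = 0.013). Muc1 encodes a membrane mucin of epithelial surfaces. Its adjusted p was 0.058 with the neutrophil covariate and 0.068 with only the 6 DKO and WT arrays. Tspan8, a tetraspanin gene, differed by 1.62 ± 0.21. Krt18 measured 9.52, 9.12 and 9.45 log2 in DKO replicates 1 to 3 and 7.51, 7.20 and 7.83 in WT replicates 1 to 3, a difference of 1.85 ± 0.23 (adjusted p = 0.0038). Krt18 encodes a keratin of simple epithelium and its partner Krt8 rose by 1.44 ± 0.27, with the call lost without DKO replicates 1 or 2 or WT replicates 1 or 2 (adjusted p up to 0.12). For Muc1 and Krt18 all 3 DKO arrays lay above the other 9. Stab1KO and Stab2KO differed from WT by -0.19 and 0.37 for Krt18 and by 0.13 and 0.26 for Muc1, and DKO was higher than each (adjusted p = 0.0074 and 0.015, and 0.029 and 0.024). With 1 array left out the largest adjusted p of these contrasts was 0.042 and 0.065 for Krt18, the latter lost without Stab2KO replicates 1 or 2, and 0.11 and 0.095 for Muc1.

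The defining cholangiocyte genes Epcam, Sox9, Krt19 and Cdh1 were called only with all arrays. They differed by 1.27 ± 0.25, 1.63 ± 0.32, 1.23 ± 0.25 and 1.42 ± 0.27, with adjusted p = 0.036, 0.034, 0.036 and 0.029. Without DKO replicate 3 the differences were 1.14, 1.53, 0.997 and 1.33 and none of these 4 was called (adjusted p = 0.074, 0.07, 0.066 and 0.06). Krt7 differed by 0.52 and was not called. The mean of the cholangiocyte list was 7.31, 6.86 and 7.62 in DKO and 6.21, 5.69 and 6.23 in WT. It was highest in DKO replicate 3 and above every WT array in all 3 DKO arrays. The part of bile duct cells in the rises of Muc1, Tspan8 and the keratins was not tested. Elf3 encodes an epithelial transcription factor of the ETS family. Elf3 measured 5.81, 5.61 and 5.82 log2 in DKO replicates 1 to 3 and 3.89, 3.98 and 4.22 in WT replicates 1 to 3, a difference of 1.72 ± 0.13 (adjusted p = 0.00012), and all 3 DKO arrays lay above the WT arrays. It stayed called against Stab1KO and Stab2KO with each array left out (adjusted p up to 0.0048 and 0.0057). Of other epithelial transcription factor genes, Ehf rose by 1.16 ± 0.20 and Foxa1 by 1.19 ± 0.23. The call of Ehf was lost without WT replicate 2 (adjusted p = 0.073) and that of Foxa1 without DKO replicates 1 or 2 or WT replicates 2 or 3 (up to 0.13). Of the 8 genes on the mesothelial list, Krt8 and Krt18 rose and the other 6 were not called.

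**Figure D4:**
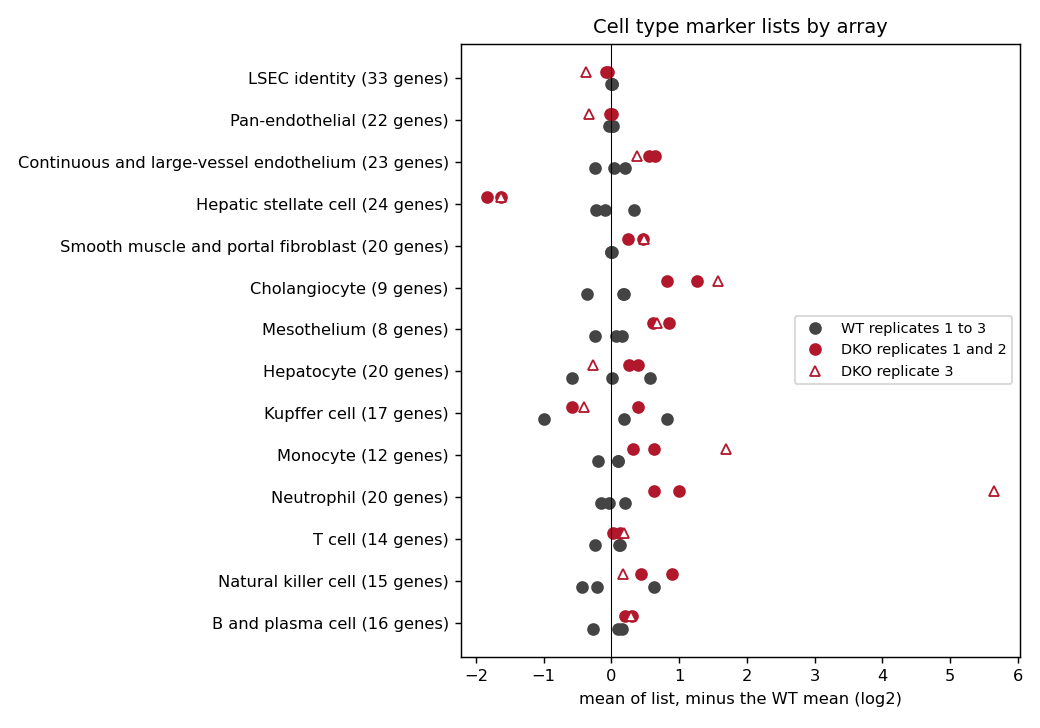
Mean log2 level of each cell type marker list in every DKO and WT array, minus the WT mean of that list. The stellate list is lower in all 3 DKO arrays, the cholangiocyte list is higher in all 3, and the neutrophil list is far higher in DKO replicate 3.

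Immediate early genes are transcribed within minutes of a stimulus such as serum, shear or tissue dissociation. Of 30 measured members 8 were higher with all arrays and 5 without DKO replicate 3, 4 in both, and 0 were lower in either fit. Of all genes 0.754% were higher with all arrays, 1.04% without DKO replicate 3 and 0.466% in both. The median difference of the list was 0.81 and 0.93, beside -0.02 and -0.01 over all genes. In 24 of the 30 all DKO arrays lay above all WT arrays, where 24% of all genes did not overlap in 1 direction or the other. The list mean was 9.95, 10.17 and 10.08 in DKO and 8.80, 9.09 and 9.25 in WT. Of the single-knockout arrays Stab2KO replicate 3 alone (9.61) lay above every WT array. Stab1KO measured 8.95, 8.74 and 8.91, and Stab2KO replicates 1 and 2 measured 8.90 and 8.83.

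Egr3 measured 6.60, 6.97 and 7.73 log2 in DKO replicates 1 to 3 and 5.26, 5.36 and 5.34 in WT replicates 1 to 3, a difference of 1.78 ± 0.25 (adjusted p = 0.0057). Egr3 encodes a zinc finger transcription factor and was the one stable member, highest in DKO replicate 3. Its relative Egr2 rose by 2.00 ± 0.35, and its call was lost without WT replicates 1, 2 or 3 (adjusted p up to 0.076). Ier2 and Ier3 also rose, by 1.11 ± 0.20 and 1.05 ± 0.20. Their calls were lost without DKO replicates 1 or 2 or WT replicates 1 or 2 (up to 0.088) and without DKO replicates 1 or 2 or WT replicates 1, 2 or 3 (up to 0.1). The orphan nuclear receptor genes split between the fits. Nr4a1 and Nr4a3 were called only with all arrays (2.13 and 2.37, adjusted p = 0.033 and 0.031), and Nr4a2 only without DKO replicate 3 (1.04, adjusted p = 0.028).

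Other rises outside the list were stable and were called against both single knockouts with all arrays. Of those named here, Lsmem1 alone kept the latter calls with each array left out, and the others lost 1 or both without Stab1KO replicate 2 among others. Tob1, an antiproliferative gene, differed by 1.44 ± 0.21, the transcription coregulator gene Cited2 by 1.40 ± 0.21, Irs2, an adaptor of the insulin receptor, by 1.19 ± 0.16, Chka, the first kinase of phosphatidylcholine synthesis, by 1.14 ± 0.16, and Emp1, an epithelial membrane protein gene, by 1.87 ± 0.24. Nabp1, which encodes a single-stranded DNA binding protein, measured 9.15, 9.26 and 10.29 in DKO and 7.10, 7.77 and 7.81 in WT, a difference of 2.01 ± 0.30. Cfap69 and Lsmem1 rose by 1.88 ± 0.25 and 1.11 ± 0.13. Fdft1, which encodes squalene synthase, differed by 0.95 ± 0.14 and was the one gene called of 26 measured in cholesterol and fatty acid synthesis. Fgfr3, a fibroblast growth factor receptor gene, differed by 0.83 ± 0.12. With the neutrophil covariate the adjusted p was 0.056 for Cited2 and 0.051 for Fdft1.

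Target genes of NF-kB and of cAMP had positive medians with calls that depended on the array left out. Of the single-knockout arrays, Stab2KO replicate 3 alone also lay above every WT array in both list means. It measured 9.11 for NF-kB and 8.39 for cAMP, where the highest WT array had 8.76 and 7.96 and the lowest DKO array 9.25 and 8.71. Of 19 NF-kB targets 3 were higher with all arrays and 3 without DKO replicate 3, and 0 in both, with medians of 0.73 and 0.75. Of all genes 0.754%, 1.04% and 0.466% were higher in these settings. Nfkbiz and Tnfaip3 were called with all arrays only (1.76 and 1.35), and the adhesion molecule genes Icam1 and Sele and the chemokine gene Cxcl1 without DKO replicate 3 only (1.07, 2.20 and 1.47). Of 13 cAMP targets 1 rose, Ppargc1a (0.73 ± 0.12), a coactivator of mitochondrial genes, whose call was lost without WT replicates 2 or 3 (adjusted p up to 0.068). Of 13 heat shock protein genes 0 were called by limma in either fit (1 was higher and 1 lower at an unadjusted p under 0.05 with all arrays, and 7 passed it without DKO replicate 3). Differences were positive in 8 of the 13 with all arrays and in 11 without DKO replicate 3, with medians of 0.09 and 0.26. Hsp90aa1, opposite in sign to these medians, measured -1.09 ± 0.31 (adjusted p = 0.11).

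YAP and TAZ are coactivators that respond to cell shape and act through TEAD factors. Of 20 of their targets 5 rose and 0 were lower in either fit, with a median of 0.20. The share that rose over all genes was 0.466%. Ankrd1 measured 8.76, 8.24 and 8.77 log2 in DKO replicates 1 to 3 and 6.04, 6.11 and 7.17 in WT replicates 1 to 3, a difference of 2.15 ± 0.35 (adjusted p = 0.014), with the DKO arrays above all WT arrays. Ankrd1 encodes a stretch-responsive ankyrin repeat protein. Without WT replicate 2 its adjusted p was 0.076. The others were the LIM protein gene Ajuba (0.83 ± 0.15), F3, which encodes tissue factor (1.88 ± 0.39), Wwc1 (0.87 ± 0.17) and Tgfb2 (1.004 ± 0.19). None of the 5 was stable: Ajuba lost its call without DKO replicates 1 or 2 or WT replicates 2 or 3 (adjusted p up to 0.085), F3 without WT replicates 1, 2 or 3, Stab1KO replicates 1, 2 or 3 or Stab2KO replicates 1 or 2 (up to 0.15), Wwc1 without DKO replicates 1 or 2, WT replicates 2 or 3 or Stab1KO replicate 3 (up to 0.12) and Tgfb2 without DKO replicates 1 or 2, WT replicates 2 or 3 or Stab2KO replicates 1 or 2 (up to 0.11).

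The 250 bases before the RefSeq start (GRCm38.p6) are shown for Egr2, an immediate early gene, and for Ankrd1 and Ajuba, YAP targets, since several members of these lists rose. Capitals mark, for Egr2, the CArG box, to which serum response factor binds, and, for Ankrd1 and Ajuba, GGAATG or its reverse complement CATTCC, the core letters to which TEAD factors bind. Egr2 lies at chr10:67537316-67537565 on the + strand (1 of 5 starts in the table), Ankrd1 at chr19:36119845-36120094 and Ajuba at chr14:54577662-54577911, both on the - strand.
Egr2: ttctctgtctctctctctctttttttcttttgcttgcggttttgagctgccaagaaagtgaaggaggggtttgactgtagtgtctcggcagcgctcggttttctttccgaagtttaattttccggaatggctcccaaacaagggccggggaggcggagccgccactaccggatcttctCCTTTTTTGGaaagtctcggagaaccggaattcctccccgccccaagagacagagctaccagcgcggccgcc
Ankrd1: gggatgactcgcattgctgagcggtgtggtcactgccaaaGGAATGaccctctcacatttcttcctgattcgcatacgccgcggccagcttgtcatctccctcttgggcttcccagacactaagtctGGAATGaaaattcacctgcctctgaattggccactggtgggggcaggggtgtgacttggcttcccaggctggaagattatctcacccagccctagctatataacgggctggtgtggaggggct
Ajuba: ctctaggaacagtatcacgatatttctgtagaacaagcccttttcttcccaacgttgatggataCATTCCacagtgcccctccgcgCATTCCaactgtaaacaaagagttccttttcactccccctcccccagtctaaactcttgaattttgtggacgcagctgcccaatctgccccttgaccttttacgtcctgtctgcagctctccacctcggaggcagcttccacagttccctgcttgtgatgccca
Searched on both strands over the same 250 bases, the CArG box was held by 439 of 27025 genes with a promoter in the table (1.62%) and by 3 of 24 immediate early genes. GGAATG was held by 3880 of 27025 (14.4%), by 7 of 14 YAP targets with a promoter and by 2 of the 5 that rose, Ankrd1 and Ajuba. A match describes letters only, and the share in each list was not tested.

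Genes of continuous and larger-vessel endothelium had a positive median difference and those of LSEC identity a negative one. Of 23 measured large-vessel genes 3 rose and 0 were lower in either fit, beside 0.466% of all genes that rose. The list medians were 0.42 and 0.59. The list mean was 9.69, 9.59 and 9.43 in DKO and 9.24, 8.80 and 9.09 in WT. It was 9.31, 9.31 and 9.22 in Stab1KO and 9.31, 9.24 and 9.48 in Stab2KO, so Stab2KO replicate 3 lay above DKO replicate 3. Cd34 measured 9.65, 9.49 and 9.53 log2 in DKO replicates 1 to 3 and 8.92, 8.39 and 8.58 in WT replicates 1 to 3, a difference of 0.93 ± 0.13 (adjusted p = 0.0057). Cd34 encodes a sialomucin of capillary and larger-vessel endothelium, and was stable. With 1 array left out, its largest adjusted p was 0.23 for DKO against Stab1KO and 0.42 for DKO against Stab2KO. Selp, which encodes P-selectin, and Gja5, which encodes connexin 40 of arterial endothelium, rose by 1.57 ± 0.27 and 0.63 ± 0.12. The call of Selp was lost without DKO replicates 1 or 2 or WT replicates 2 or 3 (adjusted p up to 0.076) and that of Gja5 without DKO replicate 2 or WT replicates 2 or 3 (up to 0.11). Of 33 LSEC identity genes Fam167b and Plxnc1 (-0.66 ± 0.13) fell and 0 rose, and the call of Plxnc1 was lost without WT replicates 1, 2 or 3, Stab1KO replicate 3 or Stab2KO replicates 1 or 2 (up to 0.13). The list medians were -0.20 and -0.11. Arrays lay wholly below WT in 17 of the 33 and wholly above in 3, where 24% of all genes did not overlap in 1 direction or the other. At an unadjusted p under 0.05 in limma with all arrays, 14 were lower and 3 higher. The list mean of every DKO array (11.22 to 11.54) lay below that of every WT array (11.587 to 11.594). Those of Stab2KO (11.53, 11.52 and 11.46) also lay below every WT array, while Stab1KO measured 11.56, 11.59 and 11.65. Of 22 pan-endothelial genes 0 were called by limma in either fit, and 0 were higher and 2 lower at an unadjusted p under 0.05.

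Vegfa and Vegfc, ligands of the VEGF receptors, rose by 1.47 ± 0.23 and 1.36 ± 0.25. The call of Vegfa was lost without WT replicate 2 (adjusted p = 0.068) and that of Vegfc without DKO replicates 1 or 2 or WT replicates 2 or 3 (up to 0.11). Sfrp1, which encodes a secreted Wnt antagonist, and Slc2a1, the glucose transporter GLUT1, rose by 1.84 ± 0.32 and 1.80 ± 0.36. Their calls were lost without WT replicates 2 or 3 (up to 0.088) and without DKO replicate 1, WT replicates 1, 2 or 3, Stab1KO replicates 1, 2 or 3 or Stab2KO replicates 1 or 2 (up to 0.15). Of the vasoactive genes Edn1, which encodes the vasoconstrictor endothelin-1, rose by 1.496 ± 0.30, and its call was lost without DKO replicates 1 or 2, WT replicates 2 or 3, Stab1KO replicates 1, 2 or 3 or Stab2KO replicate 2 (up to 0.11). Sdc4 and Sdc1, which encode the heparan sulfate proteoglycans syndecan-4 and syndecan-1, rose by 0.96 ± 0.11 and 0.91 ± 0.12 and were stable, while the glypican gene Gpc4 fell (-0.79 ± 0.11). Cavin3, which encodes a caveolar coat protein, rose by 0.90 ± 0.12 and was stable. Entpd1 measured 11.75, 11.80 and 11.67 log2 in DKO replicates 1 to 3 and 10.66, 9.97 and 10.02 in WT replicates 1 to 3, a difference of 1.52 ± 0.20 (adjusted p = 0.0044). Entpd1 encodes CD39, the ectoenzyme that breaks down extracellular ATP. Its DKO arrays lay above all WT arrays, and Stab1KO and Stab2KO differed from WT by 1.32 and 0.74. The ATP and ADP receptor genes P2ry1 and P2rx4 fell (-0.85 ± 0.15 and -0.54 ± 0.10), with calls lost without DKO replicate 2 or WT replicates 1, 2 or 3 (up to 0.088) and without WT replicates 1, 2 or 3 or Stab2KO replicate 2 (up to 0.12).

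Interferon-stimulated genes had a positive median difference with few calls. Of 28 measured members 24 had a positive difference with all arrays and 26 without DKO replicate 3, with medians of 0.32 and 0.48. At an unadjusted p under 0.05, 11 were higher and 0 lower with all arrays, and 17 passed it without DKO replicate 3. The list mean was 8.79, 9.13 and 8.70 in DKO and 8.25, 8.66 and 8.34 in WT, so all DKO arrays lay above all WT arrays. In both fits 2 were called and rose, beside 0.466% of all genes. These were Oasl1 (1.33 ± 0.25) and Oasl2 (0.66 ± 0.11), both of the oligoadenylate synthetase-like family. Their calls were lost without DKO replicate 2 or WT replicates 1 or 3 (adjusted p up to 0.097) and without WT replicates 1 or 3 (up to 0.075). Mx2 and Ifit1 were called only without DKO replicate 3 (2.01 and 1.51, adjusted p = 0.0034 and 0.034). Of 18 genes of MHC class I and its processing Tap1, a subunit of the peptide transporter, and H2-Q7 rose by 0.52 ± 0.10 and 0.94 ± 0.17, with calls lost without DKO replicates 1 or 2 or WT replicates 1, 2 or 3 (up to 0.1) and without DKO replicates 1 or 2 or WT replicates 2 or 3 (up to 0.085). H2-Q7 has near-identical relatives, so probes may share signal among them. Of 10 MHC class II genes 0 were called by limma, and 0 were higher and 0 lower at an unadjusted p under 0.05.

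Among other cell types, 0 genes of the Kupffer cell (17), dendritic cell (14), T cell (14), natural killer cell (15), hepatocyte (20), platelet (9) and mast cell (10) lists were called by limma in either fit, and of these 99 genes 5 were higher and 7 lower at an unadjusted p under 0.05 with all arrays. Over all 24011 genes 1432 were higher and 2567 lower at that unadjusted threshold. The Kupffer list mean was 8.27, 9.24 and 8.44 in DKO and 7.84, 9.67 and 9.03 in WT, overlapping widely. Of 15 natural killer genes 13 had a positive difference with all arrays and 14 without DKO replicate 3, with medians of 0.42 and 0.58. The natural killer list mean was 6.88, 6.43 and 6.15 in DKO and 5.56, 5.78 and 6.62 in WT, so the groups overlapped. Of 12 monocyte genes Ace and Nr4a1 were called with all arrays only (1.01 and 2.13) and Ly6c2 without DKO replicate 3 only (1.35). The monocyte list mean was 6.58, 6.88 and 7.96 in DKO and 6.06, 6.36 and 6.36 in WT, above every WT array in all 3 DKO arrays and highest in DKO replicate 3. Of 11 erythroid genes Tfrc, the transferrin receptor, was called without DKO replicate 3 only (1.20). Of 9 lymphatic endothelial genes Reln fell and the transcription factor gene Prox1 rose by 1.06 ± 0.22, a call lost without DKO replicates 1 or 2, WT replicates 1, 2 or 3, Stab1KO replicate 3 or Stab2KO replicates 1 or 2 (adjusted p up to 0.17). Of 16 genes of B and plasma cells Ighg2c, an immunoglobulin heavy chain constant region gene, and Sdc1 rose. Ighg2c measured 5.78, 7.12 and 7.38 log2 in DKO replicates 1 to 3 and 3.91, 4.43 and 4.39 in WT replicates 1 to 3, a difference of 2.51 ± 0.37 (adjusted p = 0.0081), and it was stable. The list mean was 6.67, 6.77 and 6.76 in DKO and 6.21, 6.58 and 6.64 in WT. Of the 20 neutrophil genes 0 were called with all arrays, and 11 were higher at an unadjusted p under 0.05. S100a8 measured 7.58, 8.14 and 12.76 log2 in DKO replicates 1 to 3 and 6.23, 6.32 and 6.70 in WT replicates 1 to 3, and the difference of 3.08 ± 1.10 was not called (adjusted p = 0.2). Without DKO replicate 3 Lcn2 alone was called (1.73, adjusted p = 0.04), although all DKO arrays lay above all WT arrays in 17 of the 20. Of all genes 24% did not overlap in 1 direction or the other.

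**Figure D5:**
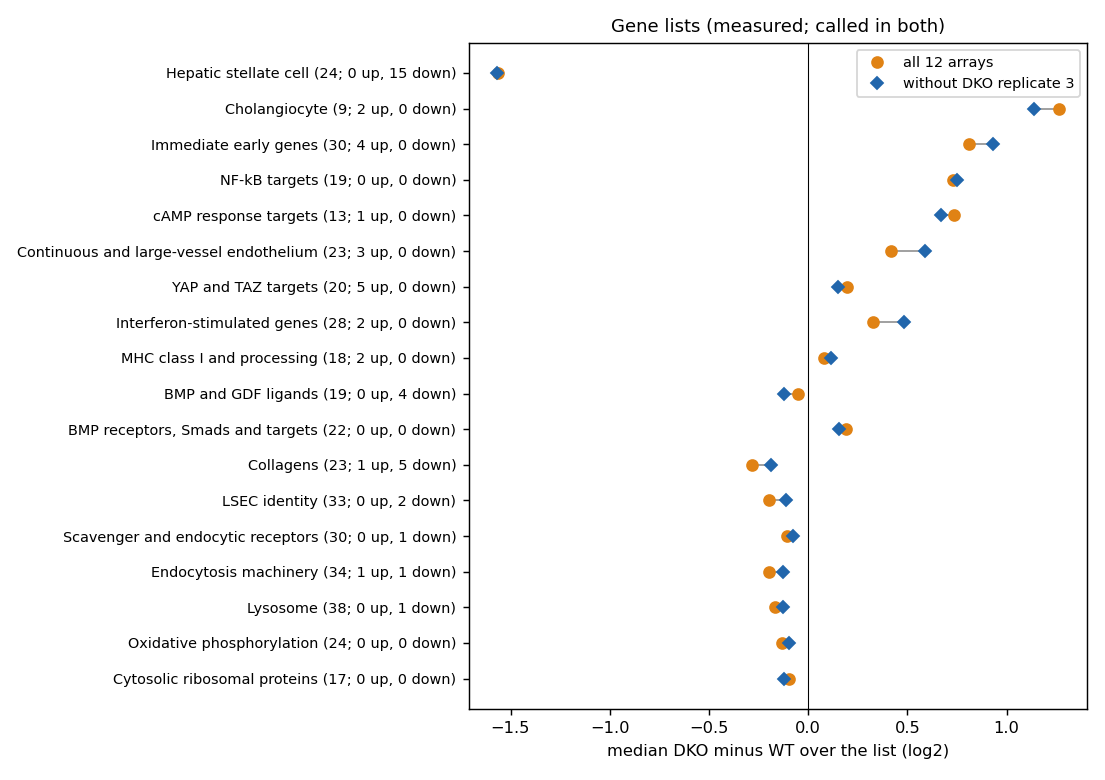
Median DKO minus WT difference (log2) of 18 gene lists with all 12 arrays (circles) and without DKO replicate 3 (diamonds); labels give the measured members and how many rose and fell in both. The stellate median is -1.56 and -1.57 and the cholangiocyte median 1.27 and 1.14. Medians are also positive for immediate early genes (0.81 and 0.93), NF-kB targets (0.73 and 0.75) and cAMP targets (0.73 and 0.67). Those of large-vessel endothelium (0.42 and 0.59) and interferon-stimulated genes (0.32 and 0.48) follow, and the remaining medians are smaller in size.

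Calls found in 1 fit only numbered 165 with all arrays and 157 without DKO replicate 3. The former were 69 higher and 96 lower genes. Beside Nr4a1 and Nr4a3, the 5 largest rises there were Mmrn1 (1.90), which encodes a multimerin of platelets and lymphatic endothelium, Nfkbiz (1.76) and Csrnp1 (1.71). The 5 largest falls were Lamb1 (-1.48), a laminin chain gene, Klf12 (-1.18), Slc35e3 (-1.11), Pdgfrb (-1.07) and Rflna (-0.91). Of the calls made only without DKO replicate 3, 137 were higher and 20 lower, and in 74 of the 157 all 3 DKO arrays lay clear of the WT arrays even so. The largest rises were Trim69 (2.81), Iqcn (2.68), the claudin gene Cldn4 (2.26), Sele (2.20), which encodes E-selectin, and Fam71a (2.06). The largest falls were Steap4 (-2.79), Slc18a2 (-2.09), Tgfbi (-1.65), Tnfrsf21 (-0.85) and Zfp764 (-0.78). Tgfbi, a matrix protein gene that myeloid cells also express, differed by -0.94 with all arrays, and Tnfrsf21 by -0.03.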

How the data were processed

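RNA of bead-isolated LSECs was measured on 12 Affymetrix arrays, 3 per genotype, each a pool of 3 mice. The deposited values are log2 expression values made by the authors with RMA (background correction, quantile normalization and probe summary), per the submitters' processing notes. Neither the RMA version nor the genome build is given in the sources used here. Values ran from 2.94 to 13.9, and sorted values of the arrays differed by at most 0.00187. No detection calls were used, so low values hold an unknown share of background, and for arrays their number limits the precision.

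Of 24973 rows, 24015 had 1 gene symbol in the platform annotation, 0 had several and 958 were unnamed. Where rows shared a symbol the one with the highest mean was kept (4 left out), giving 24011 genes, of which 23918 had a position in RefSeq's GRCm38.p6, used for neighbouring genes. RefSeq promoters came from the same build, without those of chromosome 18.

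limma 3.58.1 (R 4.3.3) fitted 4 group means to 12 arrays, and again to 11 without DKO replicate 3, with lmFit and eBayes, 2-sided, adjusted by Benjamini-Hochberg and called under 0.05. The fit was tested on simulated data. With 3 against 3 arrays an exact permutation test cannot go below 0.1. Labels call the pools biological replicates. Named genes are the targets and their neighbours, the 15 largest rises and 15 largest falls called in both fits without overlap, the 5 largest of each kind called in 1 fit only, and up to 5 called members of each of 64 lists (1179 of 1254 genes measured), or up to 2 uncalled ones as values. Placeholder gene models and small RNAs are not named. Further genes were named after their values were seen. These are stable genes outside the rule, other members of the stellate, cholangiocyte, immediate early and YAP lists, and Acta2, Mcam, Lyve1 and S100a8. The members and lists were chosen with earlier results of these data known. Replicate numbers were not used to pair the arrays in the main fits, as they are not stated to be batches. Same-numbered arrays of different genotypes had correlated deviations of -0.06 to 0.29, above 0.1 in 4 of 18 pairs. For DKO with WT these were 0.04 to 0.23, so a shared effect of the number was not excluded. Alternatives were a block for the number, a filter below the 40th percentile of gene means, trend and robust options, array weights, further quantile normalization, every row, only the 6 arrays compared, the neutrophil mean as a covariate and each array left out.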

Additional observations from a re-analysis of the deposited data

How the results depend on the processing

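Array weights called 1111 genes in DKO against WT, 1082 without DKO replicate 3, 939 in both, 466 against Stab1KO and 1789 against Stab2KO. With only the 6 DKO and WT arrays the count was 97, and 97 in both. That fit has fewer arrays for the spread. With the neutrophil mean as a covariate it was 247, or 66 without DKO replicate 3 and 54 in both, and the cause was not tested. Leaving out 1 array gave 125 to 510 genes against WT, 73 to 621 when DKO replicate 3 was also left out, and 52 to 358 in both. It gave 22 to 357 against Stab1KO and 45 to 854 against Stab2KO. A fit left with 1 DKO array assumes that it varies like the other groups. The alternatives for DKO against the single knockouts were chosen after seeing the data. The replicate block called 508 genes against WT, 549 without DKO replicate 3 and 314 in both. The numbers are not stated to be batches, and 4 of the 152 named genes called in both lost their call under the block. The low-signal filter (542 calls), trend and robust options (471), further quantile normalization (434) and every row (445) kept the count against WT within 1.5 times. Among the 192 named genes called with all arrays, 0 changed sign under any of the alternatives run. 55 of the 152 kept their call under all alternatives, 91 lost it with only 6 arrays and 43 with the neutrophil covariate. Signal over background could not be judged from these values.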

Other observations

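Further gene groups had a few calls each. Among 23 collagen genes, 1 rose and 5 fell, beside 0.466% and 0.646% of all genes. Col14a1, which encodes a fibril-associated collagen, differed by -1.19 ± 0.16 and Col6a1 by -0.74 ± 0.12, while Col8a1, a short-chain collagen gene, rose by 1.44 ± 0.28 (log2 difference ± SE, n = 3 arrays per group, limma adjusted p = 0.0053, 0.013 and 0.031). Col14a1 kept its call with each array left out, Col6a1 lost it without WT replicates 2 or 3 (adjusted p up to 0.065) and Col8a1 without DKO replicates 1 or 2, WT replicates 2 or 3 or Stab1KO replicate 3 (up to 0.13). Of 29 genes of the unfolded protein response and ER-phagy, Retreg1, an ER-phagy receptor gene, and Dnajb9 rose by 2.15 ± 0.43 and 0.70 ± 0.13, and the transcription factor genes Atf4 and Ddit3 were called only without DKO replicate 3 (0.77 and 0.97). Retreg1 lost its call without WT replicates 1, 2 or 3, Stab1KO replicates 2 or 3 or Stab2KO replicates 1 or 2 (up to 0.14) and Dnajb9 without DKO replicates 1 or 2 or WT replicates 2 or 3 (up to 0.11). Of 19 genes of the p53 response and senescence, Eda2r, Zmat3 and the cell cycle inhibitor gene Cdkn2a differed by -0.95 ± 0.17, -0.72 ± 0.15 and -0.60 ± 0.11, and Ccnd1, which encodes cyclin D1, by -0.59 ± 0.09. Their calls were lost without DKO replicate 1 or WT replicates 2 or 3 (up to 0.097), DKO replicate 1, WT replicates 1, 2 or 3, Stab1KO replicates 1, 2 or 3 or Stab2KO replicates 1 or 2 (up to 0.17), DKO replicates 1 or 2 or WT replicates 1, 2 or 3 (up to 0.069) and WT replicates 2 or 3 (up to 0.064). In retinoid metabolism, Bco1, which cleaves beta-carotene, differed by -0.999 ± 0.12 beside Lrat, and 0 of 24 genes rose. Foxf1, a mesenchymal and endothelial transcription factor gene, differed by -0.96 ± 0.14, and Bco1 and Foxf1 kept their calls with each array left out, though Foxf1 lost it with the neutrophil covariate (adjusted p = 0.053). Of 17 ribosomal protein genes 0 were called by limma, with 0 higher and 2 lower at an unadjusted p under 0.05.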
